A study of Mus musculus with 3 samples.

Results

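The 683 promoters described here carried much H3K4me3 in elongating spermatids and little in spermatocytes. They were chosen by their H3K4me3 counts in all 3 libraries, as the rows of 11140 with fewer than 83 counts in leptotene/zygotene spermatocytes (LZ), fewer than 136 in pachytene/diplotene spermatocytes (PD) and at least 4389 in elongating spermatids (ES). All 3 libraries came from testes of adult C57BL/6J mice, which carried no further allele or treatment per the labels. Chromatin was cut with micrococcal nuclease, an enzyme that digests the DNA between nucleosomes, and precipitated with the same antibody against H3K4me3. Each stage has 1 library, so no difference between stages has a replicate check and no p-value is given. The sources used here give neither the way the stages were separated nor the number of animals.

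H3K4me3 is the trimethylated form of lysine 4 of histone H3. It is laid down around the start sites of active or poised genes, mostly at CpG-rich promoters. Leptotene and zygotene cells break and begin to pair their chromosomes, pachytene and diplotene cells recombine and then separate the paired chromosomes, and both belong to the prophase of the first meiotic division. Round spermatids, which were not sampled, follow the divisions. Elongating spermatids reshape the nucleus, replace most histones by transition proteins and protamines, and gradually stop transcription. Some promoters keep or gain histone marks through this remodelling.

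Rows carry numbered identifiers of assembled loci and no gene symbols. None of the 683 identifiers matched a gene symbol, synonym or accession of the mouse RefSeq table of GRCm38.p6, and none of the 11140 did. Genes, roles and sequences of these promoters, and the defining markers of the sorted stages, are therefore not analysed here.

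Over all promoters the ES library held 17989325 counts, PD 4826890 and LZ 1654906. Levels are given as counts per 1000000 of these totals (CPM), which is a share of the counts over the listed promoters. A change common to all promoters is not visible on this scale. The limits of the set corresponded to 244 CPM in ES, 28.2 CPM in PD and 50.2 CPM in LZ. They kept promoters that were within the lower 55.4% of LZ, the lower 58.7% of PD and the top 10% of ES. A count of 0, which allows up to 3 counts, corresponds to at most 0.167 CPM in ES, 0.622 CPM in PD and 1.81 CPM in LZ.

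As a group, the 683 promoters made up 6.13% of the table but held 25.1% of all ES counts. In LZ they held 0.974% of the counts (95% Clopper-Pearson interval 0.959 to 0.989) and in PD 0.292% (0.287 to 0.297). Summed over the set, the ES level was 25.8 times the LZ level (interval 25.4 to 26.2) and 86.0 times the PD level (84.6 to 87.4). These intervals cover counting error only, and may understate it, since PCR copies of a molecule could not be recognised by molecular identifiers. The ES excess itself follows from the limits, which fix a ratio of at least 4.92 for ES to LZ and 8.72 for ES to PD.

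**Figure D1:**
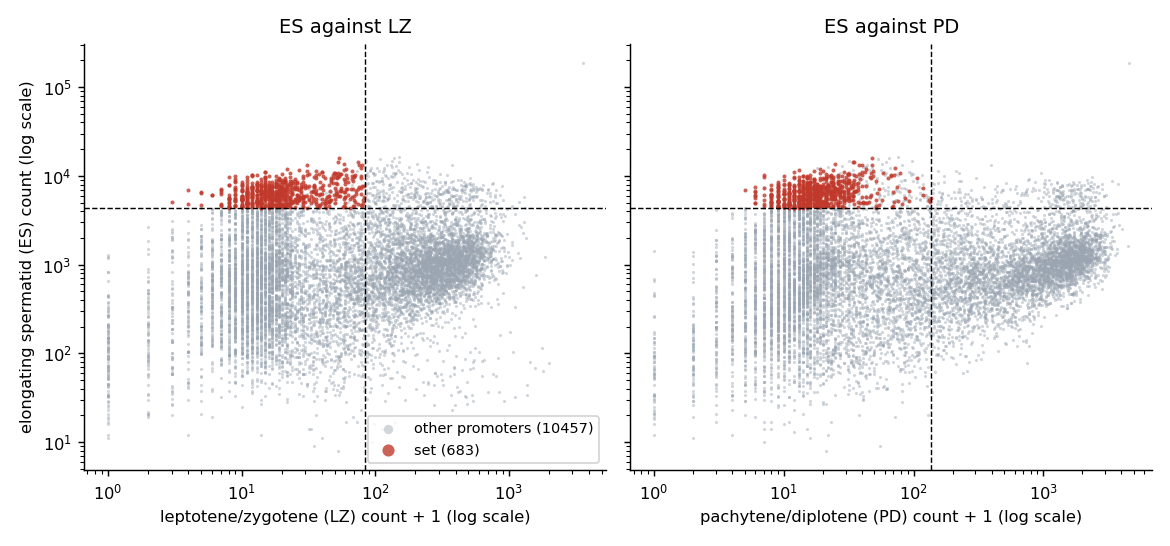
ES count of each promoter against its LZ count (left) and PD count (right), on log axes with 1 added to the LZ and PD counts. Dashed lines mark the limits, and the 683 promoters of the set (red) lie in the upper left; promoters in grey beside them in the right panel, above the ES limit and left of the PD limit, exceed the LZ limit.

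Levels within the set differed in spread between the libraries. ES counts ran from 4389 to 16033, with a median of 6186 and 10th and 90th percentiles of 4696 and 9261. The ratio of these percentiles was 1.97, against 5.78 in LZ and 3.78 in PD. The rule cuts ES counts from below and LZ and PD counts from above, which shapes these ratios. Counting error also widens them more in LZ and PD, where counts are far fewer, and its part was not tested. In ES the ratio was 2.19 for the other promoters at or above the ES limit and 26.6 over the whole table. LZ counts ran from 2 to 82 with a median of 17, and PD counts from 4 to 135 with a median of 16. In CPM, the medians were 344 in ES, 3.31 in PD and 10.3 in LZ. No promoter of the set had 0 counts in LZ or PD, whereas 108 of the other 4648 promoters under both spermatocyte limits had 0 in LZ and 56 had 0 in PD.

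Most of the set lay far below the spermatocyte limits. In the set, 106 promoters reached 0.5 times the LZ limit and 18 reached 0.5 times the PD limit. The other promoters under both limits also lay mostly far below them. Their 75th percentile was 22 counts in LZ and 24 in PD, against 28 and 24 in the set. In ES, 219 promoters of the set lay within 1.25 times the limit and 85 reached 2 times the limit. At the edge, a promoter with 4389 counts in ES, 13 in PD and 30 in LZ was included, and one with 4387, 11 and 18 was not. On the LZ side, a promoter with 7686, 22 and 82 counts in the same order was included and one with 12708, 21 and 83 was not. On the PD side, 5601, 135 and 25 counts met the rule and 7086, 140 and 49 did not. After thinning every library to 1654906 counts, the medians of the set were 573 in ES, 6 in PD and 17 in LZ, and its ES counts spanned 372 to 1471. With limits scaled to these totals, 683 promoters met the rule again and 662 of them were the original ones. The thinned counts were drawn from those that chose the set, and LZ kept its own total, so this overlap was largely built in.

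The promoter with the most ES counts belonged to locus MSTRG.10528. Its 16033 counts in ES are 891 CPM (95% Poisson interval 878 to 905). Its 47 counts in PD are 9.74 CPM (7.15 to 12.9), and its 53 counts in LZ are 32.0 CPM (24.0 to 41.9). MSTRG.25815 had the ES to PD ratio with the highest lower bound, at 10189 counts in ES, 6 in PD and 11 in LZ. The strongest promoter of the set was therefore not among those with the least signal in spermatocytes. Both were selected for their values, and the intervals do not allow for that.

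The ES limit cut through a broad upper shoulder in the ES counts of promoters low in spermatocytes. In steps of 0.5 on the log2 scale, promoters under both spermatocyte limits were most frequent between 724 and 1024 ES counts, with 511. Their number declined to 297 between 2048 and 2896 counts, and was 302 and 333 in the next steps. It was 296 between 5793 and 8192 counts, 104 in the step after that and 11 in the last. Promoters at or above both spermatocyte limits peaked at 833 between 1024 and 1448 counts and declined in each later step up to 11585 counts, through 500, 255, 154, 127 and 112 to 26. The set thus contains the upper part of the shoulder, and 208 further promoters under both spermatocyte limits had between 0.8 times the ES limit and the limit itself.

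**Figure D2:**
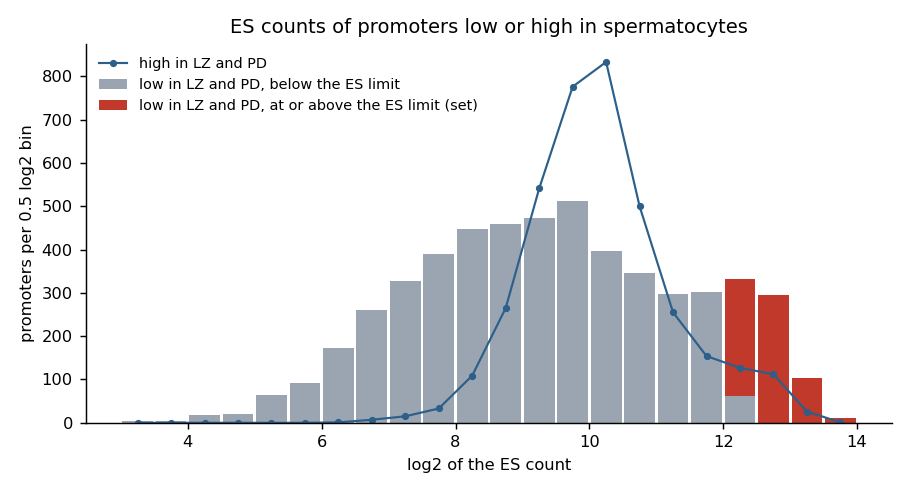
Number of promoters per 0.5 step of the log2 ES count, with bars for promoters under both spermatocyte limits and a line for those at or above both. The red part of the bars is the set; the bars rise again from 297 to 333 promoters before they fall, while the line declines throughout that range.

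By the rule of size, a promoter was higher or lower at a ratio of at least 2 with at least 20 counts in the higher library, 1 count being added in proportion to library size. All 683 promoters were higher in ES than in PD, against 52.2% of the promoters tested, and all were higher in ES than in LZ, against 40.2%. None was lower in ES, against 29.7% of the promoters tested for PD and 34.5% for LZ. The limits fixed these results. On the log2 scale, the median ratio of ES to PD was 6.64 (10th to 90th percentile 5.68 to 7.48), against 1.25 over the whole table. For ES to LZ the median was 5.08 (3.61 to 5.93), against 0.20 over the whole table. Both counts of higher promoters stayed at 683 under 5 ways of scaling the libraries, and the ratios required by the limits left little room for another outcome. Relative to the table's own median, the ES to PD median of the set was 5.39 higher with library totals and 5.16 with quantile normalization, and 7.25 higher after background subtraction.

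Between the spermatocyte stages, levels in the set were mostly lower in PD when scaled by library totals. The limits, at 28.2 CPM in PD and 50.2 CPM in LZ, leave more room for a lower than for a higher PD level, so nothing is read from the difference to the background. Only 377 of the 683 promoters reached 20 counts in LZ or PD and could be compared. Of these, 274 were lower in PD, against a background of 40.9% of the promoters tested, 2 were higher, against 16.1%, and 101 were neither. Among the other promoters under both spermatocyte limits, which share this constraint, 1200 of 2100 were lower in PD and 149 were higher. On the log2 scale, PD to LZ had a median of -1.66 in the set, -1.49 in those others and -0.99 in the whole table.

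Both the size of this difference and whether most promoters compared were lower in PD depended on the scaling. With quantile normalization, 60 of the 377 promoters were lower in PD, 45 were higher and 272 were neither. With median-of-ratios factors 149 were lower, 27 higher and 201 neither. The set's median stayed below the median of the other promoters under both limits in all 5 scalings. The difference was 0.13 with quantile normalization, 0.15 with median-of-ratios factors, 0.16 with TMM factors, 0.17 with library totals and 0.83 after background subtraction. Library totals, TMM and median-of-ratios factors rescale all counts of a library alike, which moves both medians together. Apart from the added count, these amount to the same comparison. In raw counts, which ignore depth, 364 promoters had fewer counts in PD than in LZ, 290 had more and 29 had as many.

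At the extremes, the promoter of MSTRG.12226 went from 71 counts in LZ, at 42.9 CPM (33.5 to 54.1), to 8 counts in PD, at 1.66 CPM (0.716 to 3.27). Its ES level was 349 CPM (340 to 358), from 6279 counts. MSTRG.3988 went from 16 counts in LZ, at 9.67 CPM (5.53 to 15.7), to 131 counts in PD, at 27.1 CPM (22.7 to 32.2), with 299 CPM in ES (291 to 307), from 5380 counts. LZ and PD ordered these loci oppositely, and in ES both lay within the middle of the set, whose median was 344 CPM. They were named as the lowest and highest ratio of PD to LZ in the set.

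Median counts in spermatocytes were slightly higher in the set than in other promoters under the same limits. The medians were 17 against 14 counts in LZ and 16 against 13 in PD. Among promoters with at least 20 counts in LZ or PD the order turned in PD, where the median of the set was 0.92 times that of the others, and held in LZ at 1.13 times. The lower end differed more: the 10th percentile was 9 in both libraries for the set and 5 in both for the others. At the upper end the libraries parted. The 90th percentile in LZ was 52 in the set and 47 in the others, but in PD it was 34 in the set and 54 in the others. The ratio of the 90th to the 10th percentile in PD was 3.78 in the set and 10.8 in the others. In LZ it was 5.78 in the set and 9.4 in the others. Counts of the set thus spanned a smaller ratio in both libraries, more so in PD.

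Within the low class, the share of promoters that met the ES limit rose with the spermatocyte count up to the band of 20 to 39 and was lower above it. By LZ count, 6 of 401 promoters with 0 to 4 counts were in the set, which is 1.50% (95% Clopper-Pearson interval 0.551 to 3.23). The share was 7.52% at 5 to 9 counts, 14.2% at 10 to 19, 17.6% at 20 to 39 and 15.6% at 40 to 82 counts (13.0 to 18.5). By PD count, 1 of 448 promoters with 0 to 4 counts was in the set, or 0.223% (0.00565 to 1.24). The share was 7.42% at 5 to 9 counts, 17.0% at 10 to 19 and 20.5% (18.0 to 23.1) at 20 to 39, and 6.91% (5.16 to 9.03) at 40 to 135. The share in the top band was below that in the band before it in both libraries, by more in PD than in LZ. In LZ the intervals of these bands overlapped, with 15.2 to 20.2 at 20 to 39 counts. The bands are of raw counts, so the same count stands for a different CPM in LZ and PD, and the top bands differ in width. The intervals treat promoters of 1 library as independent, the counts are those the set was chosen by, and the difference between the libraries was not tested.

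**Figure D3:**
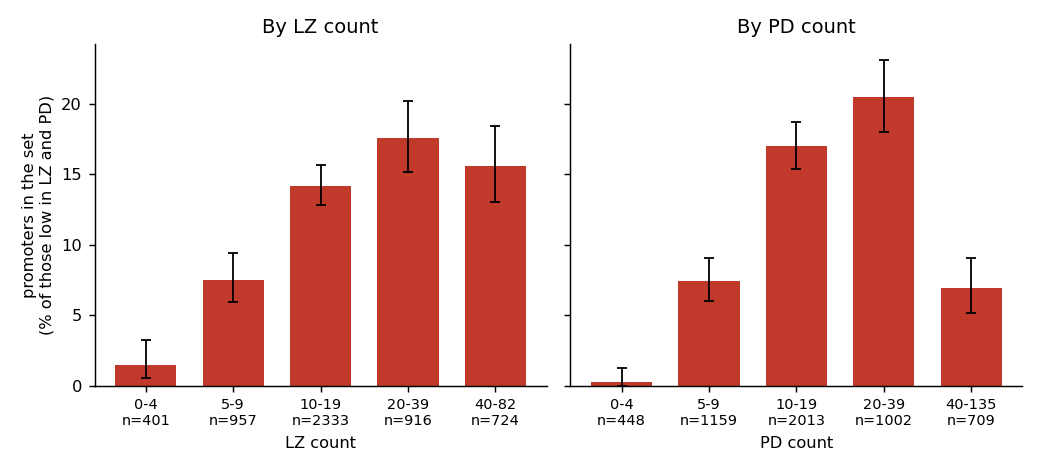
Percentage of promoters under both spermatocyte limits that also met the ES limit, in bands of LZ count (left) and PD count (right), with 95% Clopper-Pearson intervals. The share rises from 1.50% to 17.6% over the first 4 LZ bands and from 0.223% to 20.5% over the first 4 PD bands, then drops to 6.91% in the highest PD band.

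Within the set, spermatocyte counts varied only weakly with the ES count. Among the 171 promoters with the lowest ES counts (median 4773) the median was 15 counts in LZ and 14 in PD, and among the 171 with the highest (median 8740) it was 22 and 21. The groups between, with ES medians of 5710 and 6781, both had 16 in PD and had 16 and 16.5 in LZ. Across the 683 promoters, Spearman's rho was 0.25 between ES and PD, 0.22 between ES and LZ and 0.43 between LZ and PD. In the 4648 others the first of these was 0.05, the second 0.07 and the third 0.46. All values come from the same 3 libraries and the sets are cut by limits on these counts, so the coefficients are descriptions across promoters.

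Other promoters at or above the ES limit numbered 431. Those over the LZ limit only, 158 promoters, had a median ES count of 7120 and a 90th percentile of 12167, both above the 6186 and 9261 of the set. The 245 promoters over both spermatocyte limits had a median of 6014 and a 90th percentile of 8318, and the 28 over the PD limit only had a median of 5909. In spermatocytes, the set and the 245 had medians of 17 against 351 counts in LZ and 16 against 1304 in PD. All groups were cut at the same ES limit and at the same spermatocyte limits, which shape both their likeness in ES and their distance in LZ and PD.

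Locus numbers took no part in the choice of the set, and the set was spread over nearly the whole range of them. In bins of 1000 numbers that ended before the closing stretch of the table the share of promoters in the set had a median of 6.74% over 26 bins. It was lowest, at 3.23% (13 of 402), for numbers 13000 to 13999 and highest, at 10.2% (40 of 391), for 21000 to 21999. Most promoters of the set had no listed neighbour in it. Neighbours were the next listed loci on either side, at most 5 numbers away. A neighbour belonged to the set for 84 of the 683 promoters (12.3%, interval 9.93 to 15.0). The share was 10.3% (9.75 to 10.9) for the other rows, which include the closing stretch. For the others under both spermatocyte limits it was 11.6% (10.6 to 12.5). For the others at or above the ES limit it was 11.8% (8.94 to 15.3). At most 20 numbers away, the shares were in the same order 14.9% (12.3 to 17.8), 11.5% (10.9 to 12.1), 12.5% (11.5 to 13.5) and 12.3% (9.35 to 15.8). Adjoining promoters of the set are each counted, so they are not independent and the intervals of the set may be too narrow. Ordered by number, 581 promoters of the set stood alone, and there were 46 runs of 2, 2 runs of 3 and 1 run of 4.

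**Figure D4:**
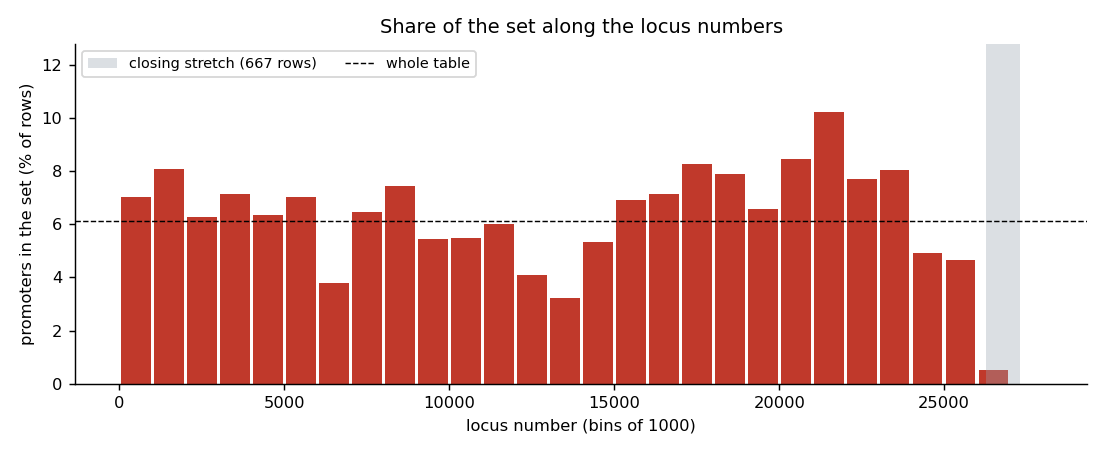
Percentage of listed promoters that belong to the set, in bins of 1000 locus numbers, with the value for the whole table as a dashed line and the closing stretch of the table shaded. The 26 bins that end before the shaded stretch vary between 3.23% and 10.2%, the next bin is partly shaded, and the shaded stretch holds 0 promoters of the set.

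The end of the range held no promoter of the set. The table's rows do not follow the locus numbers throughout but jump at 3 places, which divides them into 4 stretches. The first stretch, with numbers 1 to 1617, had 56 promoters of the set among 674 (8.31%, 6.34 to 10.7). The second, with 13213 to 26276, had 358 of 5188 (6.90%, 6.23 to 7.62), and the third, with 1619 to 13210, had 269 of 4611 (5.83%, 5.17 to 6.55). The closing stretch, with 26284 to 27289, had 0 of 667 (0%, 0 to 0.552). The table gives no chromosomes, and whether its stretches follow them was not tested. The stretches were noticed in the table and are a description.

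No promoter of the closing stretch reached the ES limit, whatever its counts in spermatocytes. The largest ES count in it was 3940, and in the other stretches 1114 of 10473 promoters (10.6%) reached 4389. Promoters low in spermatocytes were not lacking there, with 390 of 667 (58.5%) under both limits against 47.2% elsewhere. Of these 390, 31 reached 0.5 times the ES limit (7.95%, 5.46 to 11.1), against 1240 of 4941 elsewhere (25.1%, 23.9 to 26.3).

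Median counts of such low promoters were smaller in the closing stretch in every library. Their medians were 339 in ES, 7 in PD and 5 in LZ, against 733, 14 and 15 in the other stretches together, which are ratios of 0.462, 0.5 and 0.333. Their 90th percentile in ES was 2041 against 5326, a ratio of 0.383, whereas in PD it was higher in the closing stretch, at 61.3 against 50 counts. Promoters over both spermatocyte limits had ratios of 0.840 in ES, 0.511 in PD and 0.617 in LZ. These differences are of the stretch as a whole, and their part in the absence of the set was not tested. Over all its promoters, medians were lowest at the end of the stretch. They were 181 in ES, 2 in PD and 2 in LZ for the 140 promoters numbered 27084 to 27283, and 99, 2 and 0 for the 5 after them. In the bins of 200 numbers from 26284 to 27083 they ran from 612 to 877 in ES, 40.5 to 95 in PD and 17 to 52 in LZ. In the other stretches together they were 894, 59 and 59. PD medians were thus above 59 in these bins except for numbers 26684 to 26883, and the largest ES count was 3940.

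**Figure D5:**
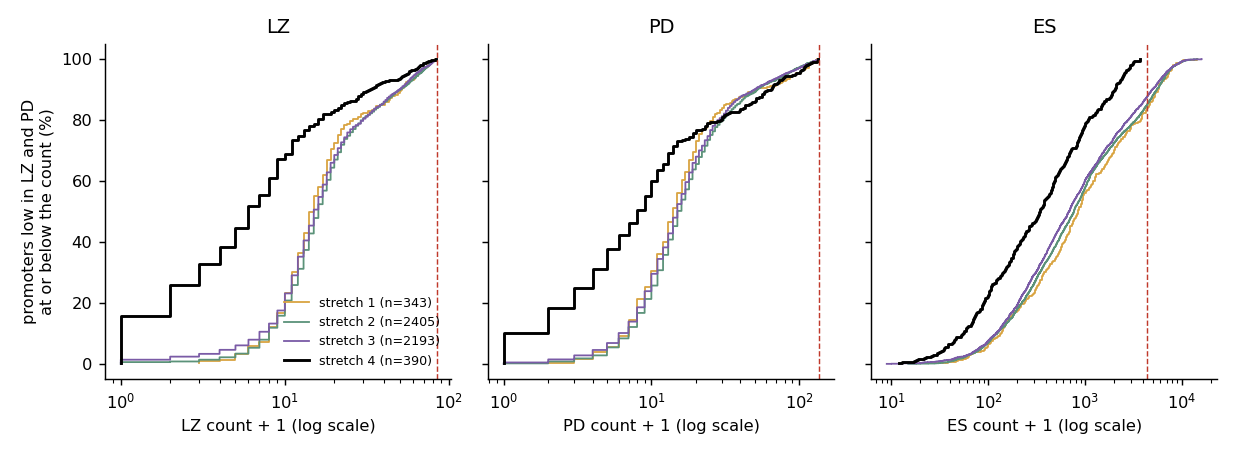
Cumulative percentage of promoters under both spermatocyte limits by count in LZ, PD and ES, on log axes with 1 added, for the 4 stretches of the table in file order; the dashed line is the limit of the set in that library. The closing stretch (black, 390 promoters) lies to the left of the others at its median in each panel and ends at 3731 ES counts, below the ES limit.

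Leaving out the closing stretch changed the bands of spermatocyte counts little in shape. It held 174 of the 401 promoters with 0 to 4 LZ counts and 147 of the 448 with 0 to 4 PD counts. Without it, 2.64% of the lowest LZ band and 0.332% of the lowest PD band were in the set. The PD bands from 20 to 39 and from 40 to 135 counts then had 21.0% (18.5 to 23.7) and 7.60% (5.67 to 9.92).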

How the data were processed

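The authors deposited raw counts of H3K4me3 reads over promoters, 1 column for each of 3 libraries, in a table whose name gives a 2 kb window. The submitters' processing notes name Trim Galore, STAR and mm10 and give no versions. The sources used here do not give the counting tool, the position of the window, the treatment of duplicate and multiply mapped reads or the choice of listed promoters, and each could move counts between promoters. Columns were matched to libraries by their description label. The set and its limits were chosen with earlier results of these data known, so its ES, LZ and PD levels are descriptions. With 1 library per stage no count model was fitted. Ratios used library totals and 1 added count in proportion to library size. Alternative scalings were median-of-ratios factors, TMM factors (edgeR 4.0.16), quantile normalization and subtraction of the median level of the 10% of promoters with the lowest mean. The ratio rule was tested on simulated Poisson counts with planted 4-fold changes. Such counts hold no spread beyond counting error, so the test does not cover differences between replicate libraries. Loci named were those with the most ES counts, the highest lower bound of the ES to PD ratio, and the highest and lowest PD to LZ ratio. Computation used Python 3.11.15, numpy 2.4.6, pandas 2.3.3 and scipy 1.17.1.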

Additional observations from a re-analysis of the deposited data

How the results depend on the processing

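No paired analysis was possible because 1 library per stage leaves nothing to pair or to leave out. Leaving out the closing stretch was chosen after seeing the data. The rule kept 631 and 756 promoters with both spermatocyte limits 0.5 lower and higher on the log2 scale, 332 with the ES top 5% and 1268 with the ES top 20%, a change the construction of the limits brings. Promoters of the set higher in PD than in LZ numbered 45 with quantile normalization, 42 after background subtraction, 27 with median-of-ratios factors, 13 with TMM and 0 at 4-fold. Those lower in PD numbered 60 with quantile normalization, 149 with median-of-ratios factors, 176 at 4-fold and 525 with no minimum count. In the order TMM, median of ratios, quantile and background subtraction, the median log2 ratio of the set was 6.21, 5.35, 4.78 and 7.56 for ES to PD. It was 5.34, 4.94, 4.69 and 6.07 for ES to LZ, and -0.96, -0.51, -0.15 and -1.57 for PD to LZ. These settings take another ratio as unchanged or reshape the distributions. The share of the set next to another of its promoters was 6.30% at a distance of at most 1 and 14.9% at a distance of at most 20. At a distance of at most 1, the share next to a promoter of the set was 5.97% for all other rows. It was 7.01% for the others under both spermatocyte limits and 7.19% for the others at or above the ES limit. The median count of the set over that of other promoters under both limits was 1.21 in LZ and 1.23 in PD. With at least 20 counts in LZ or PD it was 1.13 in LZ and 0.92 in PD, where the direction turned, and 1.14 in PD without the closing stretch. The cause was not tested. The LZ total, the smallest, gives the widest counting error in CPM for a given count. Relative to the level, the error follows the counts themselves, of which the set held 16124 in LZ and 14105 in PD.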
